A study of Mus musculus with 32 samples.

Results

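The comparison described here set the m6A immunoprecipitate (IP) against the input RNA of the same liver in 4 sham-operated mice whose Mettl14 gene was floxed and not deleted (sham flox). A gene was taken as a member if its mean level in the 4 sham flox inputs was at least 50 counts per 1000000 counts of the library (CPM). This kept 2858 of the 55421 genes of the deposited table, and 2756 of them carried a symbol. The least abundant member had a mean input level of 50.0459 CPM, and the most abundant gene left out had 49.9987 CPM. All 2858 were among the 14332 genes that passed the filter on low counts and entered the fit.

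The series covers 16 mice and 32 liver libraries, with 4 mice in each of the 4 combinations of operation (sham or hepatectomy) and genotype (Mettl14 knockout, KO, or floxed control). The sham flox animals were 77 days old (replicates 1 and 2), 71 days old (replicate 3) and 73 days old (replicate 4). Each gave 1 input and 1 IP library. All animals of the sham KO group and of both hepatectomy groups were 72 or 73 days old. The labels do not name the promoter or the Cre line behind the knockout, nor what the sham operation consisted of. Input libraries were made with a kit for stranded mRNA, and IP libraries with a different kit from RNA that had been broken into short pieces and bound by an anti-m6A antibody. The effects of the antibody, the fragmentation and the kit cannot be told apart in these libraries, so IP/input is used below as the name of a measured ratio.

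N6-methyladenosine (m6A) is the most common internal modification of mRNA. It is written by a complex in which METTL3 carries the catalytic site and METTL14 holds the RNA, and it is bound by reader proteins such as those of the YTHDF family, which speed the decay of many marked transcripts. In an m6A immunoprecipitation, RNA that carries the mark is recovered more often than RNA without it, so a high ratio of IP to input is commonly read as a marked transcript and a low ratio as a poorly marked one. Hepatocytes, the main cell of the liver, spend much of their mRNA on secreted plasma proteins, on lipoproteins and on metabolic enzymes.

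The 4 inputs held 10191367 to 12360721 counts and the 4 IP libraries 11016846 to 16386670. An input had 4340 to 6156 genes with at least 10 counts and an IP library 8597 to 12902, with more in the IP library of all 4 animals (mean difference 5505, p = 0.125 in an exact 2-sided sign-flip permutation test, which cannot go lower with 4 animals). The members took 87.0% to 90.5% of the input counts and 83.3% to 84.9% of the IP counts. All 20 hepatocyte markers of a fixed list were members, with a summed level of 83300 to 94400 CPM in inputs and 100000 to 104000 CPM in IP libraries. Markers of Kupffer cells and macrophages summed to 283 to 748 CPM in inputs and 406 to 710 CPM in IP libraries, and those of sinusoidal endothelial cells to 220 to 765 and 503 to 726 CPM. Stellate cell and fibroblast markers summed to 244 to 687 CPM in inputs and 298 to 406 CPM in IP libraries. For cholangiocytes the sums were 8.52 to 126 and 9.21 to 51.8 CPM, and for blood cells 48.7 to 195 and 60.1 to 125 CPM. Single markers on these lists were uneven. Cd68, Acta2, Krt19, Epcam, Cd3e, Cd79a, S100a8 and S100a9 had no count in any of the 4 inputs, while others were present, such as C1qb (mean 143 CPM) and Col3a1 (87.7 CPM). In bulk RNA, fewer cells of a type and less RNA per cell cannot be told apart. Mettl14 itself was not a member: it had 0 counts in each of the 4 sham flox inputs, where 3 counts would be 0.24 to 0.29 CPM, and 0, 124, 0 and 86 counts in their IP libraries. The 4 sham KO inputs also held none and the sham KO IP libraries 0, 38, 0 and 52, so the genotype labels could not be checked from this gene.

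The number of members that differed between IP and input depended on the test. At an adjusted p under 0.05 in edgeR and a change of at least 2-fold, 6 members were higher in IP (0.21% of members, and 0.174% of all genes tested) and 13 were lower (0.455%, and 0.0907% of all genes tested). On the adjusted p alone, 16 members passed in each direction (0.56% each, against 0.244% of all genes tested for IP higher and 0.112% for IP lower). At an unadjusted p under 0.05 there were 168 (5.88%). The lower set was made up largely of genes of the acute phase, the response of the liver to inflammation. Those for secreted plasma proteins were Lcn2, the serum amyloid genes Saa1 and Saa2, Orm2, Hpx and Serpina3n. The acute phase list also placed there the metalloreductase Steap4 and the metallothioneins Mt1 and Mt2. The higher set held genes of lipid handling (Fabp1, Apoa5), a protease inhibitor (Serpina1d), Mettl7b, Pcf11 and the noncoding RNA Kcnq1ot1. All 13 lower members had a mean input level of 235 CPM or more, and no gene outside the members was called lower. Genes low in input have little room to be called lower, so the larger share of lower calls among members is no result about them. Without the animal as a block in the fit, 2 members were called higher and 4 lower. DESeq2 called 177 higher and 70 lower, and limma-trend 35 higher and 19 lower. In edgeR 3 members were called lower without replicate 1 and 4 without replicate 2.

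The middle of the distribution depended on how libraries were scaled. The median log2 IP/input was 0.47 over members and 3.91 over all genes tested; by the rule, the other genes tested were low in the inputs. Without scaling factors beyond the library totals the members' median was 0.22, with upper-quartile factors -0.04 and with DESeq2's size factors 0.16. Values below are set beside 0.47 in the main scale, but this median depended on the input level. It was 0.91 for members of 50 to 100 CPM, 0.22 for 100 to 500 CPM, 0.21 for 500 to 5000 CPM and 0.29 above. The 13 lower members stayed lower and called under all 3 of the other scalings, while of the 6 higher members 2, 1 and 1 stayed called. By sign in single animals, 333 members (11.7%) were higher in IP in 4 of 4 animals and 181 (6.33%) lower. Both shares rose with level. Of 1416 members with 50 to 100 CPM in input, 111 were higher and 44 lower in all 4 animals. Among the 205 members of 500 to 5000 CPM these counts were 59 and 34, so counts for lists of abundant genes need this beside them. The 4 IP levels lay above all 4 input levels in 157 members (5.49%) and below them in 72 (2.52%).

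**Figure D1:**
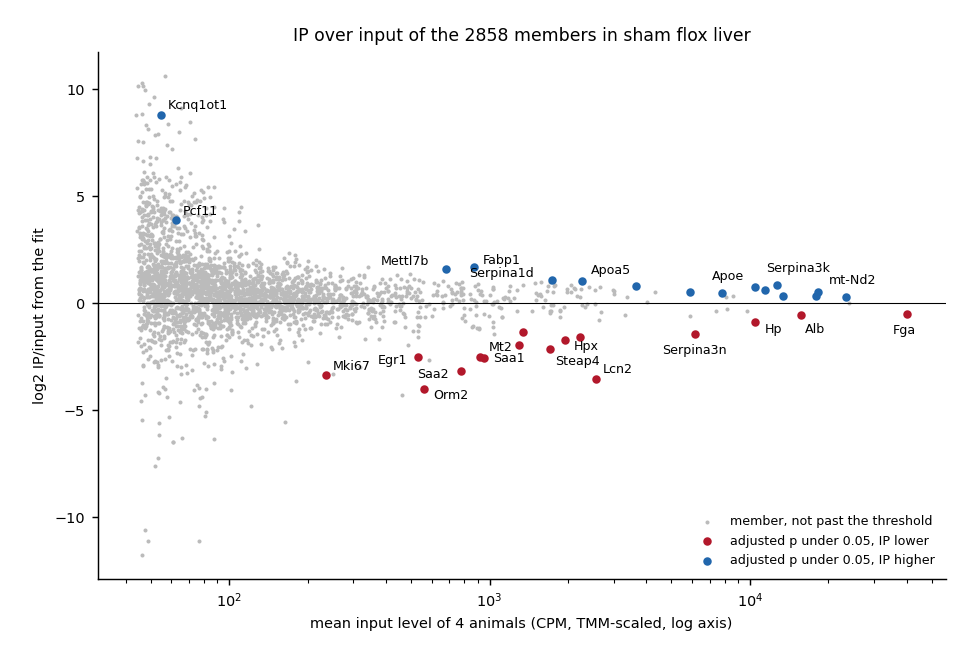
Each point is 1 of the 2858 members, with its mean level in the 4 sham flox inputs (CPM on a log axis, scaled by TMM, so that some lie under 50) on the x axis and the log2 IP/input of the fit on the y axis; colours mark an adjusted p under 0.05. Values spread widely at the left edge, where no member but Kcnq1ot1 and Pcf11 was called, and the called lower members lie at 235 CPM and above.

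The acute phase proteins had the lowest median ratio of the lists with at least 8 members. Of 22 members on the list, 9 were called lower and none higher (0.455% and 0.21% over all members). Hp also passed the adjusted p, at less than 2-fold. In 10 of the 22 all 4 animals were lower in IP, and in none all 4 higher (6.33% and 11.7% over all members). Such counts were larger among abundant genes. Of the 205 members with 500 to 5000 CPM in input, 11 were called lower and 34 were lower in all 4 animals. The list's median log2 IP/input was -1.28, beside 0.47 over all members. The list was written with earlier results of these libraries known, so its count describes these samples only.

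Lcn2, lipocalin 2, binds bacterial siderophores and is released by hepatocytes in the acute phase response. Its level in the inputs of replicates 1 to 4 was 1610, 2110, 3220 and 3320 CPM, and in the IP libraries 46.7, 112, 1040 and 400 CPM. Every IP level lay below every input level, and the fitted log2 IP/input was -3.53 (SE 0.29, adjusted p = 2.5e-30, 11.5-fold lower; mean of the 4 animals -3.50 ± 1.49 SD). The ratio was lower in replicates 1 and 2 than in 3 and 4. With a robust estimate of spread, added after seeing the data, the log2 IP/input of Lcn2 did not pass (adjusted p = 0.083). That setting kept 10 of the 13 lower calls, all 6 higher calls and 17 of the 32 members past the adjusted p. Not every gene that failed with it is marked below. In the table Lcn2 lies on chromosome 2 from 32384633 to 32388252 (minus strand), on a genome build that no source used here names.

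The serum amyloid A proteins are carried on high density lipoprotein and are classic acute phase reactants. Saa1 had 512, 762, 1210 and 1340 CPM in the inputs and 35.3, 50.8, 576 and 499 CPM in the IP libraries (log2 IP/input -2.57, SE 0.61, adjusted p = 0.011). Saa2 had 663, 624, 1090 and 719 CPM in the inputs and 13.5, 5.04, 970 and 679 CPM in the IP libraries (-3.14, SE 0.70, adjusted p = 0.0057). The drop of Saa2 came from replicates 1 and 2, with log2 values of -5.52 and -6.69, while replicates 3 and 4 were at -0.17 and -0.08. The mean of the 4 animals was -3.11 ± 3.49 (SD), and the ranges of input and IP overlapped. With the robust spread the log2 IP/input of Saa2 did not pass (adjusted p = 0.28). Saa1 and Saa2 lie side by side on chromosome 7 (from 46740497 to 46742980 and from 46751790 to 46754313) and are close copies of each other, so the split of reads between them is uncertain.

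Orm2, an orosomucoid that carries lipophilic compounds in plasma, had 569, 546, 664 and 467 CPM in the inputs and 9.74, 30.8, 24.1 and 539 CPM in the IP libraries (log2 IP/input -3.98, SE 0.84, adjusted p = 0.0019). Replicate 4 stood against the other 3 animals, with a log2 value of 0.20, so Orm2 was not lower in every animal. Its neighbour Orm1, like Apcs, Saa4, Lbp and Hamp below named after its values were seen, was lower in 4 of 4 animals but did not pass (-1.12, SE 0.43, adjusted p = 0.22). Orm1 and Orm2 are also close copies.

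Steap4, a metalloreductase induced by inflammatory cytokines, had 1390, 1730, 1470 and 2250 CPM in the inputs and 242, 314, 691 and 446 CPM in the IP libraries (log2 IP/input -2.11, SE 0.37, adjusted p = 2.1e-05). All 4 IP levels lay below all inputs, and the animals were close to one another except replicate 3. Hpx, hemopexin, which binds free heme, had 1760, 1570, 2710 and 1760 CPM in the inputs and 298, 387, 744 and 1510 CPM in the IP libraries (-1.69, SE 0.31, adjusted p = 8.7e-05). Its ranges were also apart, narrowly, because replicate 4 differed by only 0.22 on the log2 scale.

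The metallothioneins bind zinc and copper and rise in inflammation. Mt1 had 1190, 2180, 2870 and 2650 CPM in the inputs and 171, 545, 1910 and 1390 CPM in the IP libraries (log2 IP/input -1.57, SE 0.31, adjusted p = 0.00057). Mt2 had 964, 909, 1560 and 1760 CPM in the inputs and 64.8, 203, 1010 and 733 CPM in the IP libraries (-1.95, SE 0.44, adjusted p = 0.0069). Both were lower in IP in all 4 animals, with overlapping ranges. Serpina3n, a protease inhibitor of the acute phase, had 5000, 7250, 6770 and 5510 CPM in the inputs and 1480, 1380, 5220 and 2320 CPM in the IP libraries (-1.45, SE 0.17, adjusted p = 3.1e-14). It was also lower in all 4 animals with overlapping ranges. The mean of the 4 animals was -1.44 ± 0.85 (SD), a spread that the fit's SE does not show.

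Hp, haptoglobin, which binds free hemoglobin, had 9480, 10700, 11400 and 10300 CPM in the inputs and 2970, 3460, 13100 and 7480 CPM in the IP libraries (log2 IP/input -0.89, SE 0.11, adjusted p = 7.4e-12). Replicate 3 was higher in IP and the other 3 animals lower, and with the robust spread the log2 IP/input of Hp did not pass (adjusted p = 0.27). Apcs, the serum amyloid P component, was lower in all 4 animals without passing (-1.94, SE 0.71, adjusted p = 0.22). Saa4, Lbp and Hamp did not pass, and of these Lbp, which carries bacterial lipopolysaccharide, had the highest value of the list (2.19, SE 1.5, adjusted p = 0.40).

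The list split by animal in a way that most members did not. In 18 of its 22 members (81.8%) both animals aged 77 days had a lower log2 IP/input than both younger animals, and in none were both higher. Over all members these counts were 548 (19.2%) lower and 453 (15.9%) higher. The list's median in replicates 1 to 4 was -1.61, -2.01, -0.37 and -0.15. Summed over the 22 members, the inputs held 31700, 40900, 44200 and 40900 CPM and the IP libraries 10900, 13200, 39000 and 29900 CPM, so the IP sums differed more between animals than the input sums. Without the 2 animals aged 77 days the list's median was -0.26 and only Lcn2 of the 10 still passed; the log2 IP/input of Lcn2 was then -2.40 (adjusted p = 1.9e-07). The part of age in this split was not tested.

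**Figure D2:**
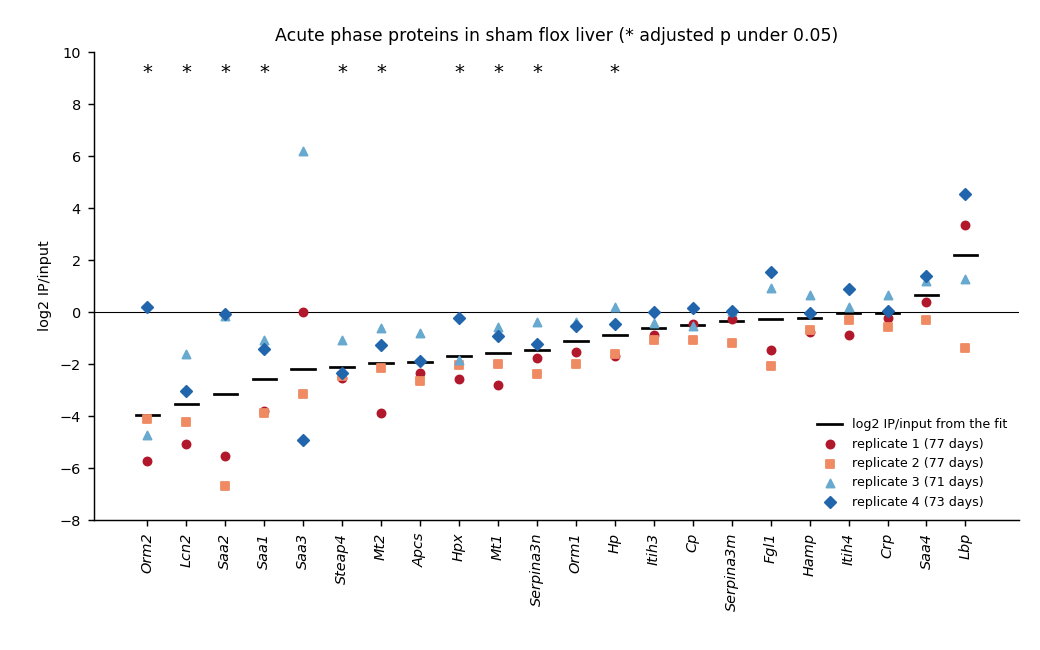
The 22 members of the acute phase list on the x axis, ordered by fitted log2 IP/input (black bars), with the log2 IP/input of each animal as a point (y axis); the replicates aged 77 days are in red and orange, and an asterisk marks an adjusted p under 0.05. For 18 of the 22 genes both warm-coloured points lie below both blue points.

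Outside the acute phase, 4 further members were called lower. Egr1, an immediate early transcription factor, had 582, 627, 333 and 581 CPM in the inputs and 83.8, 104, 151 and 52.8 CPM in the IP libraries (log2 IP/input -2.51, SE 0.59, adjusted p = 0.011). Every IP level lay below every input level, and without both older animals the log2 IP/input of Egr1 was -2.36 and no longer passed (adjusted p = 0.64). B3galt1, a galactosyltransferase of the Golgi, had 897, 1020, 721 and 1060 CPM in the inputs and 98.2, 56.8, 394 and 310 CPM in the IP libraries (-2.50, SE 0.63, adjusted p = 0.027), with ranges apart. Mki67, which marks dividing cells, had 105, 319, 437 and 79.5 CPM in the inputs and 2.02, 32, 96.4 and 13.2 CPM in the IP libraries (-3.36, SE 0.86, adjusted p = 0.032). It was lower in each animal, but the inputs differed from one another so much that the ranges overlapped. It was the only one of 25 listed cell cycle and replication genes to reach the member threshold.

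The unnamed gene ENSMUSG00000098178 was called lower (log2 IP/input -1.33, SE 0.32, adjusted p = 0.016), with 1570, 1420, 1000 and 1400 CPM in the inputs and 539, 752, 605 and 320 CPM in the IP libraries. It lies on chromosome 17 from 39846958 to 39848788, and the whole of it, 1831 bases, is shared on the opposite strand with Rn18s-rs5, a gene named for its relation to ribosomal RNA. No source used here says whether reads were counted by strand, so ribosomal RNA and this gene cannot be told apart. It did not pass with limma-trend (adjusted p = 0.099).

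Among the short-lived and immediate early mRNAs, Egr1 alone of 26 members was called. In 6 members all 4 animals were lower in IP and in 1 all 4 were higher (6.33% and 11.7% over all members). In 5 the IP levels lay below all inputs and in 1 above (2.52% and 5.49% over all members). The list's median in replicates 1 to 4 was -0.31, -0.62, 0.12 and -0.56. In the fit it was 0.24, which turned negative under each of the 3 other scalings (-0.02, -0.39 and -0.05). Among the others, named here after their values were seen, Jun had 376 ± 174 CPM in input and 112 ± 35.7 CPM in IP (SD, n = 4; log2 IP/input -1.67, SE 0.70, adjusted p = 0.25). Btg2, an antiproliferative gene, had 250 ± 192 and 22.6 ± 14.2 CPM (-3.32, SE 1.09, adjusted p = 0.17). Tob1, of the same family, had 216 ± 98.9 CPM in input and 667 ± 139 CPM in IP (1.76, SE 0.64, adjusted p = 0.22) and was higher in all 4 animals. None of these 3 passed the test.

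Among the lists with at least 8 members, the cytoskeleton list had the lowest median after the acute phase proteins, -0.85 over 13 members. No member passed the test, 6 were lower in all 4 animals and none higher in all 4, and in 4 the IP levels lay below all inputs (over all members, 6.33% were lower in all 4 animals and 2.52% had IP levels below all inputs). Krt8 and Krt18 encode the keratin pair of hepatocytes. Krt8 had 244 ± 79.8 CPM in input and 135 ± 40.0 CPM in IP (SD, n = 4; log2 IP/input -0.85, SE 0.80, adjusted p = 0.54), and Krt18, named after its values were seen, 146 ± 44.5 and 32.5 ± 7.11 CPM (-2.13, SE 1.14, adjusted p = 0.30). Actb, beta-actin, was near 0 on this scale (0.18, SE 0.40, adjusted p = 0.82), higher in replicates 1 and 2 and lower in 3 and 4. In 8 of the 13 (61.5%) both 77-day animals had the higher ratio, beside 15.9% over all members. Of the 13, 5 had no count in at least 1 input.

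On the other side, the list of apolipoproteins and lipid transport had the largest number of members that passed as higher in IP. These were 5 of 19, beside 0.56% of all members. Fabp1 and Apoa5 were called, and Apoe, Apoa1 and Apob passed the adjusted p at less than 2-fold. The last 3 had 10500, 13400 and 23300 CPM in input, where the fit's SEs are small, so this count cannot be told apart from abundance. In 8 of the 19 all 4 animals were higher in IP, and in 1 all 4 were lower (11.7% and 6.33% over all members, with larger shares among abundant ones). The median log2 IP/input of the list was 0.88, beside 0.47 over all members, and was 0.64, 0.34 and 0.61 under the other scalings, where all members had 0.22, -0.04 and 0.16.

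Fabp1, the fatty acid binding protein of the hepatocyte cytosol, had 984, 867, 731 and 896 CPM in the inputs and 3230, 2310, 3110 and 2640 CPM in the IP libraries. Every IP level exceeded every input level by more than the spread within either kind, and the log2 IP/input was 1.69 (SE 0.39, adjusted p = 0.0072, 3.23-fold; mean of the 4 animals 1.69 ± 0.29 SD). In the table it lies on chromosome 6 from 71199827 to 71205023 (plus strand) with 553 bases of exon.

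Apoa5, a plasma activator of triglyceride breakdown, had 2460, 2330, 2280 and 2010 CPM in the inputs and 3930, 4290, 6020 and 4620 CPM in the IP libraries (log2 IP/input 1.04, SE 0.22, adjusted p = 0.0013; animals 1.04 ± 0.33 SD). Apoe, which directs lipoprotein remnants to hepatic receptors, had 12000, 9690, 10400 and 9980 CPM in the inputs and 16100, 17300, 16000 and 22500 CPM in the IP libraries (0.76, SE 0.10, adjusted p = 4.5e-12). For both genes the ranges were apart. With the robust spread the log2 IP/input of Apoe did not pass (adjusted p = 0.18). Apoa5 shares 1331 of its bases with an unnamed gene on the opposite strand, which had at least 466 counts in each input and 174 to 342 in the IP libraries.

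Apoa1, the main protein of high density lipoprotein, had 12000, 13100, 14200 and 14100 CPM in the inputs and 16000, 18100, 19300 and 14800 CPM in the IP libraries (log2 IP/input 0.35, SE 0.09, adjusted p = 0.023). Apob, the structural protein of very low density lipoprotein, had 21800, 22200, 25500 and 23600 CPM in the inputs and 32700, 27200, 35500 and 20400 CPM in the IP libraries (0.29, SE 0.06, adjusted p = 0.0019). Replicate 4 of Apob was lower in IP. Both genes lay below the members' median of 0.47, but near the 0.29 of members with at least 5000 CPM in input. With limma-trend neither passed (adjusted p = 0.09 and 0.27), and with upper-quartile factors both turned negative (-0.19 and -0.25). Apoa2 and Apoc1, 2 apolipoproteins of plasma particles named after their values were seen, were higher in IP in all 4 animals with ratios like that of Apoa5 (1.01, SE 0.30, and 0.96, SE 0.30) and did not pass (adjusted p = 0.11 and 0.14).

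Mettl7b, a methyltransferase-like protein of the endoplasmic reticulum and lipid droplets, had 283, 496, 796 and 1150 CPM in the inputs and 1970, 1570, 2300 and 1610 CPM in the IP libraries (log2 IP/input 1.62, SE 0.41, adjusted p = 0.025). Its inputs varied more than its IP levels, and the ranges were apart. Ttr, transthyretin, the carrier of thyroid hormone and of the retinol binding protein, had 4340, 4200, 3240 and 2870 CPM in the inputs and 6840, 7620, 4120 and 7840 CPM in the IP libraries (0.83, SE 0.19, adjusted p = 0.0093). It was higher in each animal although the IP level of replicate 3 lay within the input range.

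The Serpina1 and Serpina3 genes, a cluster on chromosome 12 that encodes secreted protease inhibitors, held members of both directions. Serpina3k had 11300, 12200, 15200 and 11800 CPM in the inputs and 23800, 21600, 27600 and 20300 CPM in the IP libraries (log2 IP/input 0.88, SE 0.09, adjusted p = 3.5e-19), and the 4 animals differed little (0.88 ± 0.13 SD). With the robust spread the log2 IP/input of Serpina3k did not pass (adjusted p = 0.18). Serpina1d, one of the mouse copies of alpha-1-antitrypsin, had 1510, 2240, 1890 and 1320 CPM in the inputs and 3590, 3530, 3330 and 3890 CPM in the IP libraries (1.07, SE 0.28, adjusted p = 0.037). Serpina3n, given above with the acute phase proteins, was lower. Of the 8 members 5 were higher in all 4 animals and 1 lower (11.7% and 6.33% over all members). The median was 0.50, near that of all members. These genes are close copies, and in the table the spans of Serpina3k and Serpina3m, and of Serpina1d and Serpina1b, overlap on the same strand, so their values depend on how shared reads were split.

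**Figure D3:**
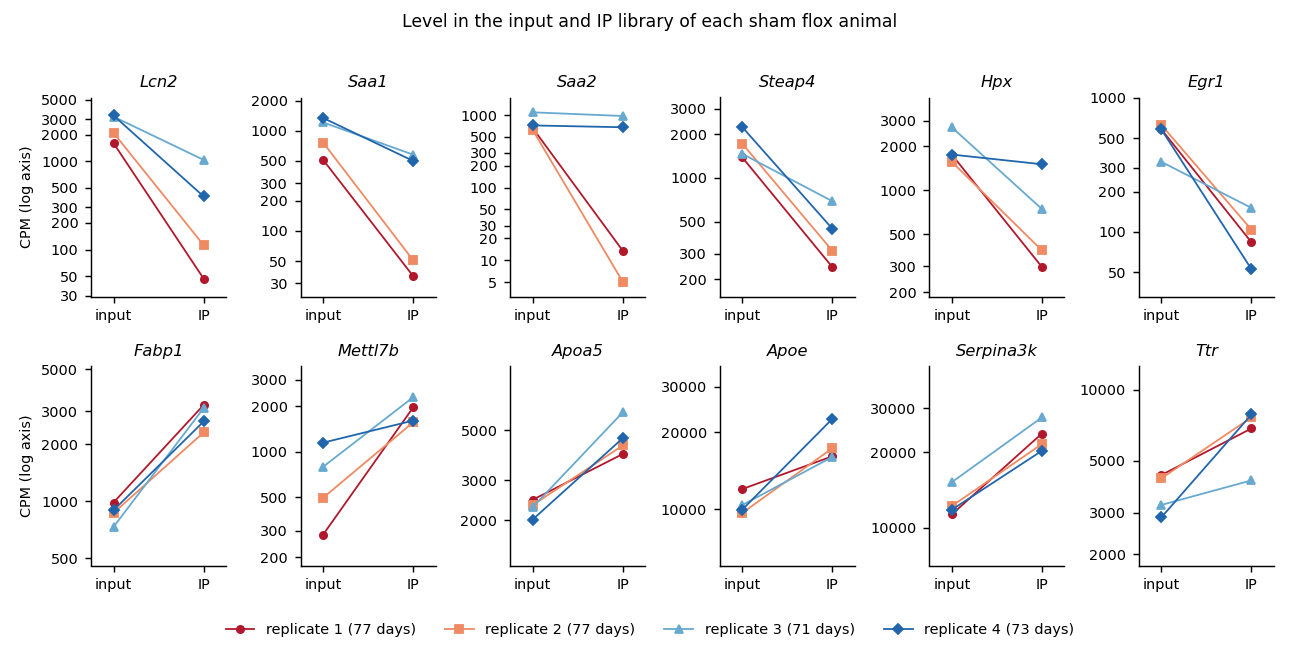
Level in CPM (y axes, log scale, each panel its own) in the input and the IP library of each sham flox animal, joined by a line, for 6 genes that were lower in IP (top row) and 6 that were higher (bottom row). In the top row the lines of the 77-day animals end lowest for Lcn2, Saa1, Saa2, Steap4 and Hpx but not for Egr1; in the bottom row every line rises.

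The remaining higher calls were 2 genes near the threshold whose inputs were uneven between animals. Pcf11, a factor of mRNA cleavage and transcription termination, had 95.4, 27.5, 126 and 0.071 CPM in the inputs and 570, 484, 390 and 269 CPM in the IP libraries (log2 IP/input 3.88, SE 1.01, adjusted p = 0.036). All IP levels lay above all inputs, and the size of the ratio depended on the near-absent input of replicate 4. Kcnq1ot1, an antisense noncoding RNA that silences genes of an imprinted cluster, had 218, 0, 0.268 and 0 CPM in the inputs and 87.5, 68.1, 83.2 and 72.1 CPM in the IP libraries (fitted log2 IP/input 8.82, SE 2.05, adjusted p = 0.01; a fitted value that rests on inputs at 0 and is no bound). Replicate 1 was lower in IP (-1.31), and it reached the member threshold through that input alone. Kcnq1 on the opposite strand also had counts in that input alone (504, against 0 in every other sham flox library), so sense and antisense reads cannot be told apart there.

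Albumin and the fibrinogen chains, which make up much of the plasma protein that the liver secretes, lay below the members' median. Alb had 22100, 14800, 11900 and 14100 CPM in the inputs and 10400, 12500, 7640 and 12800 CPM in the IP libraries (log2 IP/input -0.52, SE 0.09, adjusted p = 9.7e-06), and was lower in all 4 animals. Fga, the alpha chain, had 33300, 41300, 42400 and 43900 CPM in the inputs and 23300, 21600, 54300 and 23100 CPM in the IP libraries (-0.51, SE 0.05, adjusted p = 2.9e-23). Replicate 3 of Fga was higher in IP, and the mean of the 4 animals was -0.50 ± 0.61 (SD), a spread that the fit's SE does not show. Fgb, the beta chain, and Fgg, the gamma chain, had the same sign without passing (-0.35, SE 0.11, adjusted p = 0.15, and -0.57, SE 0.16, adjusted p = 0.075), and replicate 3 was positive in both. Alb did not pass with limma-trend (adjusted p = 0.079), while Fga did (0.042). With the robust spread neither the log2 IP/input of Alb (adjusted p = 0.37) nor the log2 IP/input of Fga (adjusted p = 0.31) passed. The 3 fibrinogen genes lie together on chromosome 3 between 83007724 and 83049863.

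The 13 mRNAs of the mitochondrial genome encode subunits of the respiratory chain and of ATP synthase. Of these, 3 passed as higher, mt-Nd2, mt-Cytb and mt-Nd4, beside 0.56% of all members. Their mean inputs were 18200, 11400 and 17900 CPM, where the fit's SEs are small, so this count cannot be told apart from abundance. mt-Nd2 had 16200, 19300, 19400 and 18100 CPM in the inputs and 35300, 27700, 29600 and 17400 CPM in the IP libraries (log2 IP/input 0.55, SE 0.06, adjusted p = 4.9e-14). mt-Cytb had 10900, 11000, 11200 and 12600 CPM in the inputs and 25200, 19600, 16700 and 11800 CPM in the IP libraries (0.64, SE 0.09, adjusted p = 6e-10). Replicate 4 was lower in IP for all 3 genes, and its summed level of the 13 mRNAs was 91600 CPM in IP against 100000 CPM in input. In replicates 1 to 3 the sums were 167000, 141000 and 136000 CPM in IP against 101000, 99600 and 106000 CPM in input. For mt-Nd4 the fitted value was 0.34 (SE 0.07, adjusted p = 0.0011). Without the 2 animals aged 77 days the log2 IP/input of mt-Nd4 was -0.03. With the robust spread none of the 3 passed.

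In 7 of the 13 (53.8%, against 15.9% over all members) both 77-day animals had the higher ratio, the reverse of the acute phase list. mt-Co3 and mt-Nd6 were lower in IP in all 4 animals and mt-Co1, mt-Co2 and mt-Atp8 higher in all 4, and none of these 5, named after their values were seen, passed. The list's median of 0.35 was below the 0.47 of all members but not below the 0.29 of members with at least 5000 CPM in input. It turned to -0.18 with upper-quartile factors. The pseudogene Gm10925 (0.55, SE 0.13, adjusted p = 0.0093) and the unnamed gene ENSMUSG00000100131 (0.47, SE 0.11, adjusted p = 0.011) passed as well. Both lie close together on chromosome 1, in a stretch known to hold a copy of mitochondrial sequence, and their reads cannot be told apart here from those of the mitochondrial genome.

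Most functions of the liver showed no called member. None of the 28 members among the cytochromes P450 of drug metabolism passed, and their median was 0.70. In all 4 animals 7 were higher and 1 lower, beside 11.7% and 6.33% over all members and larger shares among abundant ones. Cyp2e1, which oxidises ethanol, had 2410 ± 418 CPM in input and 4170 ± 1000 CPM in IP (SD, n = 4; log2 IP/input 0.78, SE 0.27, adjusted p = 0.20). Cyp1a2, which oxidises caffeine and was named after its values were seen, had 495 ± 148 and 1260 ± 194 CPM (1.38, SE 0.47, adjusted p = 0.20). Of 21 members among the conjugation enzymes, which attach glucuronate, sulfate or glutathione, 9 were higher in all 4 animals and 1 lower, with a median of 0.53 and no call.

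The list of hepatocyte transcription factors and nuclear receptors had a median of 0.93 over 23 members, with 5 higher in all 4 animals, none lower in all 4 and no call. Over all members, 11.7% were higher in all 4 animals and 6.33% lower. Hnf4a, a central regulator of hepatocyte genes, had 905 ± 401 CPM in input and 1260 ± 74.7 CPM in IP (SD, n = 4; log2 IP/input 0.63, SE 0.42, adjusted p = 0.39). Rxra, the partner of many nuclear receptors, had 481 ± 26.0 and 1010 ± 128 CPM with single animals at 0.95, 1.07, 1.24 and 0.95 (fit 1.06, SE 0.49, adjusted p = 0.27); it too was named after its values were seen. The 34 chromatin regulators with long mRNAs had a median of 0.62, with 9 higher in all 4 animals and 1 lower. Among them Crebbp, a histone acetyltransferase named after its values were seen, had 146 ± 52.2 and 358 ± 51.8 CPM (1.35, SE 0.83, adjusted p = 0.36). In single animals the median of the transcription factors was lower than in the fit, from 0.29 to 0.61.

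The growth hormone and IGF axis, which governs body growth through the liver, had a median of 0.73 over 12 members and no call. In all 4 animals 6 of the 12 were higher and 1 lower (11.7% and 6.33% over all members). Egfr, the receptor of epidermal growth factor, had 1980 ± 467 CPM in input and 2820 ± 488 CPM in IP (SD, n = 4; log2 IP/input 0.52, SE 0.26, adjusted p = 0.27), and Ghr, the growth hormone receptor, 452 ± 56.6 and 755 ± 133 CPM (0.73, SE 0.61, adjusted p = 0.50). Of the m6A machinery 9 genes were members and none passed. Zc3h13, a part of the writer complex, was at -0.47 (SE 0.80, adjusted p = 0.76), the reader Ythdf3 at 0.17 (SE 0.89, adjusted p = 0.95) and Prrc2a at 0.78 (SE 0.72, adjusted p = 0.54), the last higher in all 4 animals.

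Lists of both signs or near the overall median filled the rest. The 36 cytosolic ribosomal proteins that were members had a median of 0.35, with 1 higher and 2 lower in all 4 animals (11.7% and 6.33% over all members). The 20 complement components had a median of 0.02, with 1 higher and 3 lower, and C3, the hub of the cascade, was at -0.25 (SE 0.12, adjusted p = 0.27). The 18 major urinary proteins, pheromone carriers made by male mouse liver, had a median of -0.21, with 2 higher in all 4 animals and none lower. They are close copies of one another, so the split of reads between them is uncertain. Malat1, a nuclear long noncoding RNA, had 3360 ± 352 CPM in input and 4200 ± 656 CPM in IP (SD, n = 4; 0.31, SE 0.17, adjusted p = 0.31). By annotation, the 2716 protein-coding members had a median of 0.47 and the 19 long noncoding RNAs one of 1.45, a difference that was not tested. Among the noncoding RNAs, Kcnq1ot1, Norad and Neat1 had 54.7, 111 and 120 CPM in input and Malat1 3360 CPM. The median of all members was higher at low input (0.91 at 50 to 100 CPM), so annotation and level were not separated here.

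**Figure D4:**
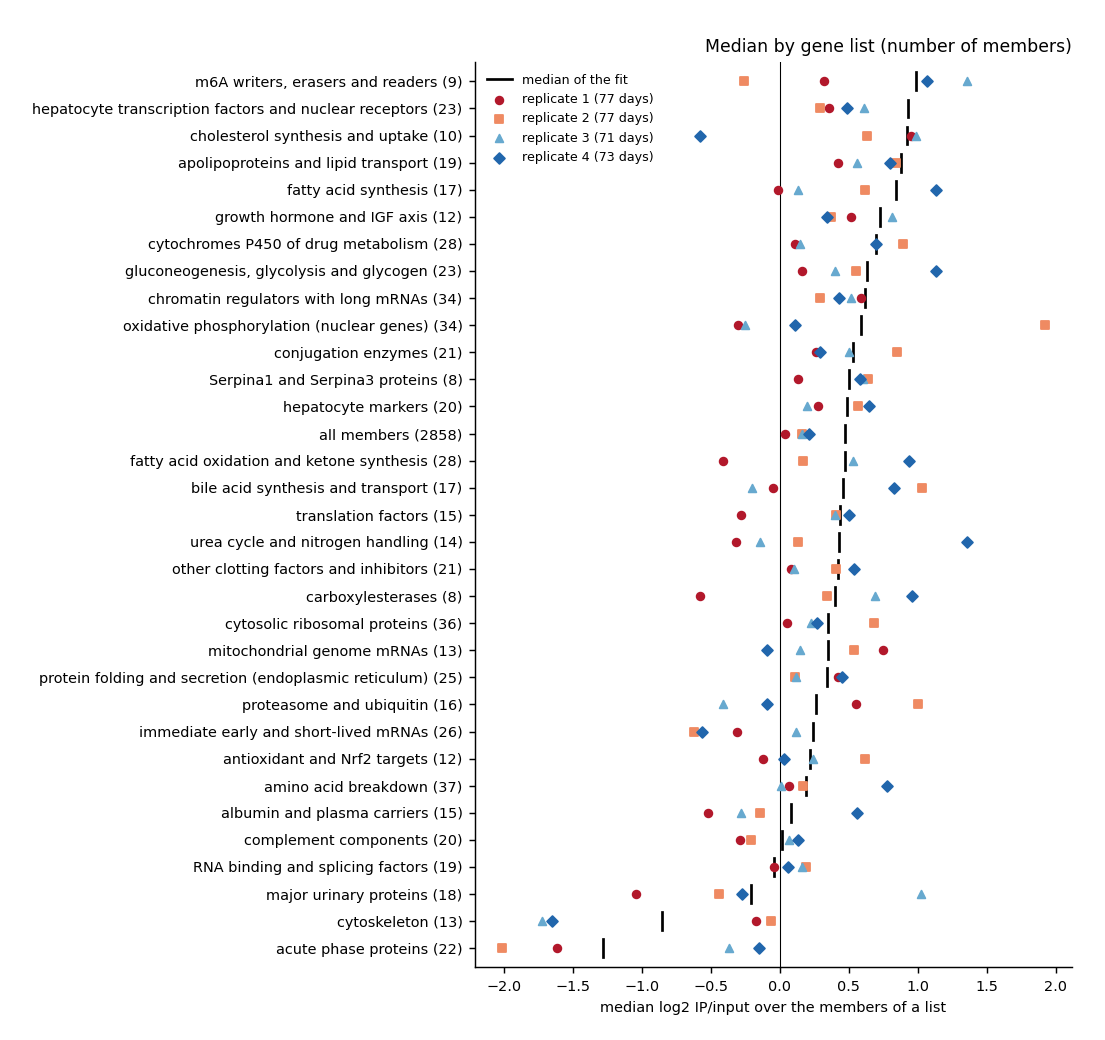
Median log2 IP/input (x axis) of the members of each list with at least 8 members, and of all 2858 members, by animal (points) and for the fit (black bars), ordered by the fit; the number of members is in brackets. The acute phase list (fit -1.28) and the cytoskeleton list (-0.85) lie lowest.

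Members of low level varied more between inputs than between IP libraries. Among the 1416 members with 50 to 100 CPM in input, 57.1% had no count in at least 1 of the 4 inputs, the median coefficient of variation between animals was 99.3% in input and 44.2% in IP, and the median SD of log2 IP/input over animals was 3.13. Among the 205 members with 500 to 5000 CPM it was 26.1% in input and 25.5% in IP, with an SD of 0.54, and this band held 4 of the 6 higher and 11 of the 13 lower calls. Over all members, 960 (33.6%) had a 0 in at least 1 input and 97 (3.39%) in at least 1 IP library. Only 2 of the members below 100 CPM were called. The choice of members used the input level, which is also the denominator of the ratio. With members chosen by the mean of input and IP the median was 0.64 over 2712 genes, 10 were called higher and 13 lower. Among the 1898 members with counts in all 4 inputs the median was 0.31, and 5 of the 6 and all 13 of the calls were kept.

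Only 3 members had no count in any IP library, and each had uneven inputs. Kif4, a chromosome-associated kinesin, had 0, 1, 958 and 1552 counts in the inputs, at least 842-fold more than 3 counts over the 4 IP libraries (0.0573 CPM), and shares 832 bases with Pdzd11 on the opposite strand. Ccdc152 had 7, 575, 1322 and 330 counts, at least 749-fold more, and shares 439 bases with the abundant Selenop on the opposite strand. Gm15511, a predicted noncoding RNA, had all its 2987 counts in the input of replicate 2, and the whole of it, 15359 bases, lies opposite Rora, which had 538 to 4703 counts in the inputs. These bounds cover counting error only, and none of the 3 was called.

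Gene structure, which the choice of members did not use, had correlations near 0 with IP/input. Across the 2858 members Spearman's rho with the fitted ratio was 0.06 for summed exon length, 0.05 for the longest internal exon and 0.01 for the number of exons (a description across genes, which are not independent replicates). With members split by exon length into 4 sets of like size, the shortest (median 1996 bases) had a median log2 IP/input of 0.42 and the longest (10935 bases) one of 0.48. Sites of the m6A consensus could not be counted, since no transcript sequences were at hand.

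The called genes were then set beside the other 3 groups, which share no library with sham flox but share the fit's estimate of spread. In sham KO livers all 13 members called lower in sham flox had a ratio below 0, and 7 passed there (0.805% of members passed as lower in sham KO). In hepatectomised KO livers this held for 11, of which 8 passed (2.03% of members), and in hepatectomised flox livers for 9, of which 1, Hpx, passed (0.14% of members; log2 IP/input -1.23, adjusted p = 0.022). Lcn2 was at -3.53 in sham flox, -2.26 in sham KO, -0.83 in hepatectomised flox and -0.72 in hepatectomised KO livers. Serpina3n was at -1.45, -1.79, 0.30 and -1.77 in the same order, and Saa2 at -3.14, -0.91, 0.04 and -5.30. The acute phase list's median was -1.28, -1.13, -0.21 and -1.95, beside 0.47, 0.34, 1.15 and 0.04 over all members.

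The 6 members called higher in sham flox were looked at in the same way. Their ratios were above 0 for 5 in sham KO, 6 in hepatectomised flox and 4 in hepatectomised KO livers, and 0, 2 and 0 of them passed (of all members 0.07%, 1.71% and 0.14% passed as higher there). The 2 were Apoa5 (log2 IP/input 1.01, adjusted p = 0.0027) and Mettl7b (1.57, adjusted p = 0.033). Fabp1 was at 1.69 in sham flox, 0.07 in sham KO, 0.75 in hepatectomised flox and -0.16 in hepatectomised KO livers. The 4 sham KO animals had Fabp1 values of 0.44, -0.84, 0.51 and 0.14, all below the 4 sham flox values of 1.41 to 2.08, but the difference of -1.62 (SE 0.54) did not pass (adjusted p = 0.81).

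The difference between sham KO and sham flox in IP/input was tested in the same fit. Its SEs follow the abundance of a gene and do not show how much that gene varied between animals, so very small adjusted p-values overstate the certainty. It passed for 11 members, all lower in KO (0.385% of members, against 0.0837% of all genes tested), and for none in the other direction (0.0%). Of the 11, 9 had names within the rule for named genes: Serpina3k, Serpina1e, Mup3, Apoa1, Apob, mt-Nd4, mt-Cytb, mt-Nd5 and mt-Nd2. All of them encode plasma or lipoprotein components, a urinary protein or subunits of the respiratory chain. The other 2 were Gm10925 and ENSMUSG00000100131. All 11 were abundant, with mean sham flox inputs from 2060 CPM (Mup3) to 24100 CPM (mt-Nd5), where the SEs are small. Function and abundance therefore cannot be told apart in this set.

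Serpina3k had the smallest adjusted p. Its log2 IP/input was 1.07, 0.82, 0.86 and 0.78 in the sham flox animals and -0.56, -0.01, -0.26 and -1.81 in the sham KO animals (difference -1.53, SE 0.13, adjusted p = 1.2e-28). Mup3 was at 0.00, 1.08, 1.03 and 1.22 in sham flox and -1.75, -0.22, -1.57 and -2.62 in sham KO (-2.39, SE 0.51, adjusted p = 0.0031). Apoa1 was at 0.42, 0.46, 0.45 and 0.07 in sham flox and -0.70, -0.37, -0.05 and -0.94 in sham KO (-0.86, SE 0.12, adjusted p = 7.5e-09). In these 3 genes all 4 KO values lay below all 4 flox values, which was so for 62 members (2.17%), while in 33 (1.15%) they lay above.

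In the other 6 named genes the animals overlapped. Serpina1e differed by -1.58 (SE 0.30, adjusted p = 0.00019), with 1 KO animal at 0.07, above 3 of the flox animals. Apob differed by -0.60 (SE 0.09, adjusted p = 1.2e-08) and the 4 mitochondrial mRNAs by -0.54 to -0.81. The SD of Apob between animals was 0.35 in sham flox and 0.53 in sham KO, a spread that the SE does not show. With DESeq2 134 differences passed, with a robust spread (added after seeing the data) 3, with limma-trend 1, and with only the members in the fit none. The sham KO animals were 72 or 73 days old, so none matched the 2 older flox animals, and without those 2 the count was 6.

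**Figure D5:**
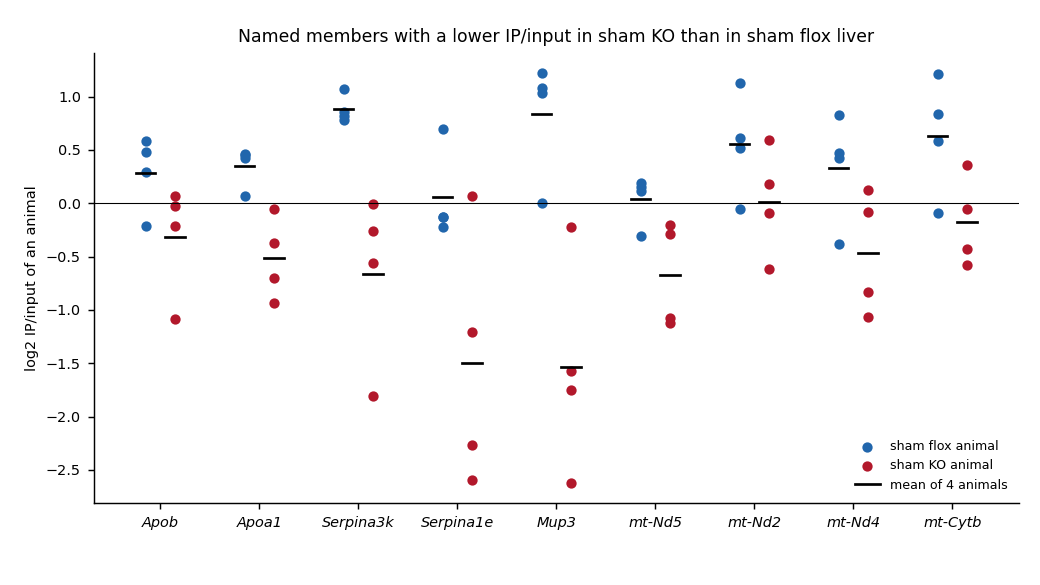
Log2 IP/input of each animal (y axis) for the 9 named members that passed as lower in sham KO than in sham flox liver (x axis), with sham flox animals in blue, sham KO animals in red and the mean of 4 animals as a black bar. The KO points lie wholly below the flox points for Apoa1, Serpina3k and Mup3 and overlap with them for the other 6.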

How the data were processed

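The deposited table holds estimated counts per gene of the authors for 32 libraries; fastp and STAR are named in the submitters' processing notes. No source used here names their versions, the counting program, its strand setting, the annotation or the build of the genome. In each library 1.33% to 8.22% of the estimated counts were not whole, and all were rounded. Genes were named by position through a RefSeq table of the mouse genome used for names only (34783 of 55421 genes), and printed positions are those of the deposited table.

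edgeR 4.0.16 (R 4.3.3) was run as a quasi-likelihood test with TMM factors after filterByExpr at a minimum count of 10, on all 32 libraries, with the animal as a block and 1 IP coefficient for each of the 4 groups. Adjusted p-values are Benjamini-Hochberg over the 14332 genes tested; a member was called at an adjusted p under 0.05 and a log2 ratio of at least 1 in size. The estimate of spread gave genes of like abundance the same spread, so very abundant genes have small SEs. Levels are CPM with TMM factors, and a log2 value of 1 animal used log2(CPM + 1). TMM raised log2 IP/input by 0.19 to 0.32. On counts simulated with the spread of these libraries the test did not call the changes put in, so a member without a call may still differ.

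The block follows the design: input and IP of a number came from the same mouse. The deviations of own-animal pairs correlated by -0.01 to 0.05 over 1898 genes, and 2 of 4 inputs matched their own IP library best. The mice are separate animals; where p-values rest on 1 library of each kind per mouse, technical spread is included.

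Alternatives were other scalings, no filter, only the members, DESeq2 1.42.0, limma-trend 3.58.1, the 8 sham flox libraries alone, no block, a robust spread, other choices of members and each animal left out. Genes were named if called with all 4 animals on 1 side and a symbol of no predicted model (up to 20 each way), or, of each list, if among the 4 with the highest input or called; Fga, Fgb, Fgg, Alb and Mettl14 always. Exceptions are the unnamed and predicted genes, those without IP counts and those said to be named after their values were seen. The members and the lists were chosen with earlier results of these data known. Protein length was not used. Figures were drawn with matplotlib 3.10.9 and summaries made with pandas 2.3.3 and scipy 1.17.1.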

Additional observations from a re-analysis of the deposited data

Results flagged for a closer look

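In 5 of 73 groups of 4 values, 1 animal stood apart from the other 3 by Dixon's criterion, which chance meets in about 1 of 20 groups. Steap4 in replicate 3 was at a log2 IP/input of -1.09, Apoa1 in replicate 4 at 0.07 and Kcnq1ot1 in replicate 1 at -1.31. The median of the Serpina1 and Serpina3 proteins was 0.13 in replicate 1, and that of the translation factors -0.28 in the same animal.

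The log2 IP/input of 9 named genes differed between sham KO and sham flox livers by the edgeR test of the difference, all lower in KO. The differences were -0.60 for Apob, -0.86 for Apoa1, -1.53 for Serpina3k, -1.58 for Serpina1e, -2.39 for Mup3, -0.71 for mt-Nd5, -0.54 for mt-Nd2, -0.81 for mt-Nd4 and -0.81 for mt-Cytb. Serpina1e and Mup3 belong to families of close copies.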

How the results depend on the processing

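The counts of 6 higher, 13 lower and 32 past the adjusted p depended on the fit. Higher calls numbered 2 without factors, 1 with upper-quartile factors, 1 with DESeq2's size factors, 2 without the filter on low counts, 3 with only the members in the fit, 177 with DESeq2, 35 with limma-trend, 15 with the 8 sham flox libraries, 2 without the replicate block, 10 with members by the mean of input and IP and 1 without the 77-day animals. Lower calls numbered 21 with upper-quartile factors, 6 with only the members in the fit, 70 with DESeq2, 4 without the block and 1 without the 77-day animals. Past the adjusted p were 9 with only the members, 247 with DESeq2, 69 with limma-trend, 54 with the 8 libraries, 9 without the block, 21 with a robust spread (added after seeing the data) and 5 without the 77-day animals. Leaving out each sham flox animal gave 2 to 5 higher, 3 to 12 lower and 13 to 31 past the adjusted p: without replicate 1 there were 3 lower, and without replicate 2 there were 4. The KO differences numbered 4 without factors, 1 with upper-quartile factors, 0 with only the members, 134 with DESeq2, 1 with limma-trend, 1 without the block, 3 with a robust spread and 6 without the 77-day animals. The cause of these moves was not tested. Of the genes past the adjusted p, 26 of 32 also passed with limma-trend, 16 with DESeq2 and 17 with a robust spread.

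Apob turned to -0.25 with upper-quartile factors, -0.02 with DESeq2's size factors and -0.02 with DESeq2, Apoa1 to -0.19 with upper-quartile factors, and mt-Nd4 to -0.21 with these and -0.03 without the 77-day animals. Across members, the rank correlation of IP/input with summed exon length was 0.04 with members by the mean of input and IP, and 0.04, 0.00 and 0.03 in replicates 1, 2 and 4 alone. With the longest internal exon it was 0.04 with those members, and 0.02, 0.01 and 0.02 in replicates 2, 3 and 4. With the number of exons it was -0.03 in replicate 1 and 0.06 in replicate 4. The acute phase list's median was negative and that of the apolipoproteins positive under each setting run. Members below 100 CPM were the least even between inputs.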
